A study of Homo sapiens with 18 samples.

Results

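The 9 genes described here encode enzymes that turn squalene into cholesterol: SQLE, LSS, CYP51A1, TM7SF2, MSMO1, NSDHL, HSD17B7, EBP and DHCR7. They were taken by name from a table of 36576 genes, and 8 of them reached the level set for testing, an average of 1 FPKM over the 9 input libraries, as did 12224 genes in all. FPKM is a read count scaled to the length of a gene and the size of its library. The pathway was chosen from measured values of these same libraries. Which comparison decided the choice is not recorded; genes of cholesterol synthesis were known by then to be higher with TiO2 than without it, so TiO2 against untreated is taken to be that comparison. Comparisons of RNA with the TiO2 libraries are therefore a description here, without a p-value. For m6A with TiO2 the authors' own p-values are printed as they gave them. The tests of BPQD against untreated cells are to be read with the uncertainty about the choice. Their variance was fitted to all 9 input libraries, those of TiO2 included.

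The cells were exposed for 24 h to BPQD at 10 mg/L, an abbreviation generally used for black phosphorus quantum dots, or to titanium dioxide (TiO2) at 100 mg/L, or were left untreated. All groups were of the same cells, which the labels call A549, a line from a human lung adenocarcinoma. For each of the 3 groups there were 3 libraries of input RNA and 3 of RNA captured with an antibody against m6A, an internal methyl mark of mRNA, so the series holds 18 libraries. The question of the series was whether nanomaterials change the m6A of these cells. The 2 doses differ, so each set of values belongs to its own exposure as given. The labels do not say that replicates were separate cultures, and a p-value then speaks only of the spread among these libraries, which may be technical.

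Cholesterol is built in 2 stretches. The mevalonate arm makes squalene from acetyl-CoA, and the enzymes described here oxidise squalene, close it into the sterol rings of lanosterol, trim methyl groups and move or reduce double bonds. In most cells the genes of both stretches are switched on together by the transcription factor SREBP-2, the product of SREBF2, when sterol in the endoplasmic reticulum runs low, and INSIG proteins hold that factor back when sterol is plentiful. In lung, cholesterol is also a part of surfactant.

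The deposited files give no read counts, and the low FPKM values are not whole multiples of a common step, so sequencing depth is unknown and values come without a counting interval. The FPKM of all genes summed to 212891 to 213976 in BPQD libraries, 219458 to 219676 in TiO2 libraries and 221580 to 222818 in untreated libraries. Libraries of a group correlated at 0.980 to 0.983 on the log2(FPKM + 1) scale and libraries of different groups at 0.966 to 0.975, and no library stood apart. The markers only partly fitted the label. KRT7 and KRT18, keratins of lung epithelium, reached at least 206 and 403 FPKM in every library. CDKN2A, which is deleted in A549, stood at 19.3 to 27.4 FPKM, and AKR1B10, AKR1C1 and ALDH1A1, which A549 cells are known to express strongly, reached at most 0.998, 1.14 and 0.116 FPKM. SFTPB and NKX2-1, markers of alveolar cells, reached at most 0.0336 and 0.0970 FPKM. Of markers of other cell types, PTPRC, PECAM1 and VWF stayed at or under 0.186 FPKM, while CDH5 stood at 1.14 to 3.73, COL1A1 at 1.52 to 3.39, PDGFRB at 1.61 to 3.29, DCN at 0.417 to 1.04 and CD68 at 10.8 to 22.9 FPKM. The part of these markers in the results was not tested, and the cells are named here by their label.

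The first steps after squalene were all higher in TiO2 libraries than in untreated ones, and they split in BPQD libraries. SQLE, squalene epoxidase, which oxidises squalene and is a control point of the pathway, had 7.02, 6.37 and 6.97 FPKM in BPQD libraries, 13.6, 14.1 and 13.6 FPKM in TiO2 libraries, and 6.11, 5.71 and 6.07 FPKM in untreated libraries. Both exposed groups lay above the untreated one without overlap, the TiO2 libraries far above it. LSS, lanosterol synthase, which closes the rings, had 3.71, 3.44 and 3.51 FPKM in BPQD libraries, 6.97, 7.62 and 7.84 FPKM in TiO2 libraries, and 4.84, 4.81 and 4.65 FPKM in untreated libraries. Here the BPQD libraries lay below the untreated ones and the TiO2 libraries above them, again without overlap. CYP51A1, the demethylase that acts on lanosterol, had 17.2, 16.7 and 16.5 FPKM in BPQD libraries, 26.3, 28.3 and 27.1 FPKM in TiO2 libraries, and 13.8, 14.7 and 13.8 FPKM in untreated libraries. Like SQLE, it was higher in every exposed library than in any untreated one. In bulk RNA, fewer cells that express a gene and less of its RNA per cell cannot be told apart.

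TM7SF2, a sterol reductase that follows CYP51A1, was the weakest of the 9 genes. It had 0.480, 0.379 and 0.411 FPKM in BPQD libraries, 0.851, 0.566 and 0.887 FPKM in TiO2 libraries, and 0.498, 0.875 and 0.402 FPKM in untreated libraries. The untreated group spanned nearly the whole range of the other groups. With a mean of 0.594 FPKM over the 9 input libraries it fell under the level for testing, and no fold change is given. LBR, a nuclear envelope protein with the same reductase activity, was tested with the other pathway genes below. The end of VPS51, a gene on the same strand that stood at 5.39 to 7.72 FPKM, overlaps the first 18 bases of TM7SF2, so reads there cannot be told apart by strand and the TM7SF2 values are uncertain.

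The C4 demethylation enzymes remove methyl groups from the sterol nucleus in turn. MSMO1, the methyl oxidase of this group, had 4.93, 5.24 and 4.92 FPKM in BPQD libraries, 13.8, 14.4 and 13.0 FPKM in TiO2 libraries, and 4.88, 4.85 and 5.31 FPKM in untreated libraries. The BPQD and untreated libraries were interleaved, and every TiO2 library was far above both. NSDHL, the decarboxylating dehydrogenase, had 13.6, 13.2 and 11.97 FPKM in BPQD libraries, 20.7, 18.7 and 20.0 FPKM in TiO2 libraries, and 15.1, 15.0 and 14.03 FPKM in untreated libraries. On the FPKM scale the groups did not overlap, but the highest BPQD library and the lowest untreated one were close. HSD17B7, the keto-reductase that ends each round, had 1.70, 1.63 and 1.94 FPKM in BPQD libraries, 3.64, 3.02 and 3.45 FPKM in TiO2 libraries, and 2.26, 2.25 and 2.34 FPKM in untreated libraries. The order was the same as for NSDHL, with BPQD lowest and TiO2 highest and no overlap. A pseudogene copy, HSD17B7P2, was listed at 0.486 to 0.793 FPKM, so part of the HSD17B7 signal could be split with it.

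The last steps showed single libraries that departed from their group. EBP, the isomerase that moves a ring double bond, had 13.4, 7.39 and 7.59 FPKM in BPQD libraries, 20.5, 13.0 and 20.5 FPKM in TiO2 libraries, and 15.5, 16.0 and 15.2 FPKM in untreated libraries. BPQD replicate 1 and TiO2 replicate 2 departed from the other libraries of their groups, so that the coefficient of variation was 36.3% in BPQD libraries and 23.9% in TiO2 libraries, against 2.51% in untreated ones. A gene on the same strand, AF196969, overlaps EBP over 6911 bases, nearly its whole length, and was listed at 0.0 to 1.58 FPKM. Reads there cannot be told apart by strand, and the part of this overlap in the uneven EBP values was not tested. DHCR7, the reductase that makes cholesterol in the last step of one branch, had 6.11, 7.10 and 6.24 FPKM in BPQD libraries, 15.1, 10.0 and 11.1 FPKM in TiO2 libraries, and 9.03, 9.35 and 7.59 FPKM in untreated libraries. Its groups did not overlap, although TiO2 replicate 1 stood well above the other TiO2 libraries.

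**Figure D1:**
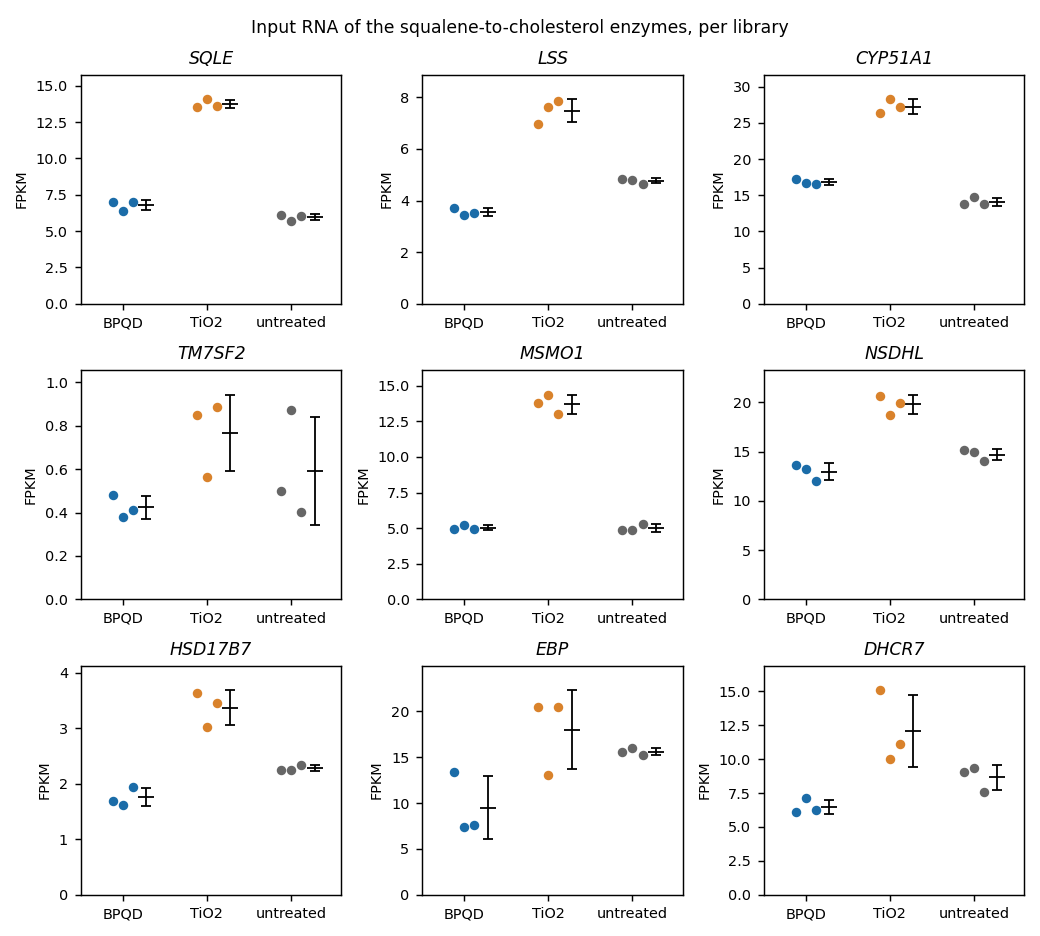
FPKM (vertical axis, linear, each panel with its own scale from 0) of the 9 enzymes in the 3 libraries of each group, BPQD, TiO2 and untreated from left to right; points are libraries and bars are group means with SD. TiO2 points lie above all others for SQLE, LSS, CYP51A1, MSMO1, NSDHL, HSD17B7 and DHCR7, while BPQD points lie on either side of the untreated ones.

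Summed over the 9 genes, a library held 68.2, 61.5 and 60.1 FPKM with BPQD, 121, 109.7 and 118 FPKM with TiO2, and 72.1, 73.5 and 69.4 FPKM untreated. On the FPKM scale the sums of the exposed groups thus lay on opposite sides of the untreated ones, the BPQD sums below by a small margin. Most of that margin came from EBP, whose libraries were uneven, with means of 9.47 FPKM with BPQD and 15.6 FPKM untreated. The mean sums were 63.3 and 71.7 FPKM. FPKM over all genes also summed lowest in BPQD libraries, and the enzyme sums were not rescaled to those totals.

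Because FPKM is scaled to length, levels can be ranked between genes within a group. In BPQD libraries the order of mean FPKM was CYP51A1, NSDHL, EBP, SQLE, DHCR7, MSMO1, LSS, HSD17B7 and TM7SF2, and NSDHL overlapped with EBP and SQLE with DHCR7. In TiO2 libraries it was CYP51A1, NSDHL, EBP, SQLE, MSMO1, DHCR7, LSS, HSD17B7 and TM7SF2, and each neighbouring pair from NSDHL to DHCR7 overlapped. In untreated libraries EBP led, followed by NSDHL, CYP51A1, DHCR7, SQLE, MSMO1, LSS, HSD17B7 and TM7SF2, and NSDHL and CYP51A1 overlapped. CYP51A1 thus held the highest mean in both exposed groups and the third place in untreated cells.

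Since most of these genes moved together with TiO2, the DNA before their starts is shown for the 4 enzymes whose window lies outside the gene as deposited and outside any other listed gene. The sequences are those of RefSeq on GRCh38.p14, from 250 to 51 bases before the start, on the gene's strand, 5′ to 3′, with matches to 3 motifs in capitals. The windows are chr4:165327419-165327618 on the plus strand for MSMO1, chr21:46228825-46229024 on the minus strand for LSS, chr1:162790452-162790651 on the plus strand for HSD17B7 and chrX:48521558-48521757 on the plus strand for EBP.
MSMO1: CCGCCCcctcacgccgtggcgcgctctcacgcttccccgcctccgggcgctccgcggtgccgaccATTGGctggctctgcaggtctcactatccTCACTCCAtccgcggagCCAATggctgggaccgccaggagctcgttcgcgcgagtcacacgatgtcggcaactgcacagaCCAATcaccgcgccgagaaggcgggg
LSS: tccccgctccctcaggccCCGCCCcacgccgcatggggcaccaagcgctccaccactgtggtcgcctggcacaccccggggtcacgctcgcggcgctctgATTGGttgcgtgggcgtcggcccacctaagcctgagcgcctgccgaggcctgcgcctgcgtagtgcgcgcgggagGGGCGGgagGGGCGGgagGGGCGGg
HSD17B7: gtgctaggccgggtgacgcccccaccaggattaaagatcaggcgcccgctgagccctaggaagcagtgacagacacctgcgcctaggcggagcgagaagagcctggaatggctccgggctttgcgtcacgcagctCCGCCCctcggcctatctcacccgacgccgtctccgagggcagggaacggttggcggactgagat
EBP: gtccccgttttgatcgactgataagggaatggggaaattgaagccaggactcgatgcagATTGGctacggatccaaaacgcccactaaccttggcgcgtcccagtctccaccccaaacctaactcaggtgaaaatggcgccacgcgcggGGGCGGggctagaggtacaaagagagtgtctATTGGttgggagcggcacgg

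The capitals mark CCAAT, the box bound by NF-Y, GGGCGG, the box bound by Sp1, and TCACNCCA, the first part of a sterol response element, each on either strand (ATTGG and CCGCCC are the reverse strand). In MSMO1, counted from the RefSeq start, the TCACNCCA match begins at -156, and CCAAT matches begin at -185, -139 and -76. The LSS window has 1 CCAAT match and 4 GGGCGG matches, 3 of them in a row. The table held 9 windows for 8 of the 9 genes, with SQLE not matched. Of these 9 windows 6 held CCAAT, 7 held GGGCGG, 1 held TCACNCCA and 0 held TCACNCCAC, which contains the shorter motif. Of 35116 windows of the same length before all listed starts, 27.4% held CCAAT, 35.0% GGGCGG, 2.66% TCACNCCA and 0.715% TCACNCCAC. A match describes the letters in a window and is not evidence of binding.

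Against untreated cells, TiO2 went with higher RNA of SQLE, LSS, CYP51A1, MSMO1, NSDHL and HSD17B7. The changes below are log2 fold changes on the log2(FPKM + 1) scale with the standard error of the limma fit, and that scale understates the change of low genes. MSMO1 was higher by 1.29 ± 0.05, SQLE by 1.08 ± 0.04 and CYP51A1 by 0.90 ± 0.04. LSS was higher by 0.56 ± 0.05, HSD17B7 by 0.41 ± 0.06 and NSDHL by 0.40 ± 0.06. These 6 genes included the first steps and all of the C4 demethylation enzymes. DHCR7 differed by 0.42 ± 0.14 and EBP by 0.17 ± 0.24, and the EBP groups overlapped. For description only, 7 of the 8 enzymes and 17.3% of all tested genes lay past the call threshold used for BPQD on the higher side, and 0 of the 8 and 20.5% of all genes on the lower side. Nothing is read from those counts, since the pathway was chosen from this contrast. The median over the 8 enzymes was 0.49, against -0.02 over all genes. Single libraries moved the values of the last steps: DHCR7 was at 0.27 without TiO2 replicate 1, and EBP was at 0.07 without TiO2 replicate 1, 0.37 without TiO2 replicate 2 and 0.07 without TiO2 replicate 3.

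BPQD against untreated cells gave changes in both directions, from -0.71 for EBP to 0.24 for CYP51A1 on the log2 scale. SQLE averaged 6.79 ± 0.361 FPKM with BPQD and 5.96 ± 0.219 FPKM untreated (SD, n = 3 each), and CYP51A1 averaged 16.8 ± 0.370 FPKM with BPQD and 14.1 ± 0.530 FPKM untreated. These were the only 2 enzymes that rose, SQLE by 0.16 ± 0.04 (limma adjusted p = 0.0167) and CYP51A1 by 0.24 ± 0.04 (limma adjusted p = 0.00151) on the log2 scale. LSS averaged 3.56 ± 0.142 FPKM with BPQD and 4.76 ± 0.102 FPKM untreated, and HSD17B7 averaged 1.75 ± 0.163 FPKM with BPQD and 2.28 ± 0.0487 FPKM untreated. LSS fell by 0.34 ± 0.05 (limma adjusted p = 0.000757) and HSD17B7 by 0.26 ± 0.06 (limma adjusted p = 0.0139). NSDHL fell by 0.17 ± 0.06 (limma adjusted p = 0.0401) and EBP by 0.71 ± 0.24 (limma adjusted p = 0.0438). MSMO1 averaged 5.03 ± 0.183 FPKM with BPQD and 5.01 ± 0.257 FPKM untreated, a difference of 0.01 ± 0.05 (limma adjusted p = 0.935). DHCR7 averaged 6.49 ± 0.538 FPKM with BPQD and 8.66 ± 0.938 FPKM untreated, a difference of -0.37 ± 0.14 that did not pass (limma adjusted p = 0.0707).

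Of the 8 tested enzymes 2 rose, 4 fell and 2 did not pass, where 20.6% of all tested genes rose and 23.4% fell with BPQD. On the FPKM scale the BPQD and untreated libraries did not overlap for 7 of the 8, MSMO1 being the exception, and for 55.6% of all tested genes. NSDHL, whose groups were close, did not pass after rescaling to TPM (limma adjusted p = 0.127). The median of the 8 was -0.21, against -0.01 over all genes. The untreated libraries in this comparison are those of the TiO2 contrast known when the pathway was chosen. The CYP51A1, LSS and HSD17B7 calls passed in every other setting in which the gene was tested, whereas the NSDHL and EBP calls were each lost in 9 of 18 settings and the SQLE call was lost without BPQD replicate 1, BPQD replicate 3 or untreated replicate 2 (adjusted p up to 0.0556). Rescaling each library to TPM left 2 enzymes called lower and moved the split over all genes to 3164 higher and 2263 lower, against 2524 and 2860. EBP differed by -0.97 without BPQD replicate 1, -0.58 without BPQD replicate 2 and -0.59 without BPQD replicate 3.

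**Figure D2:**
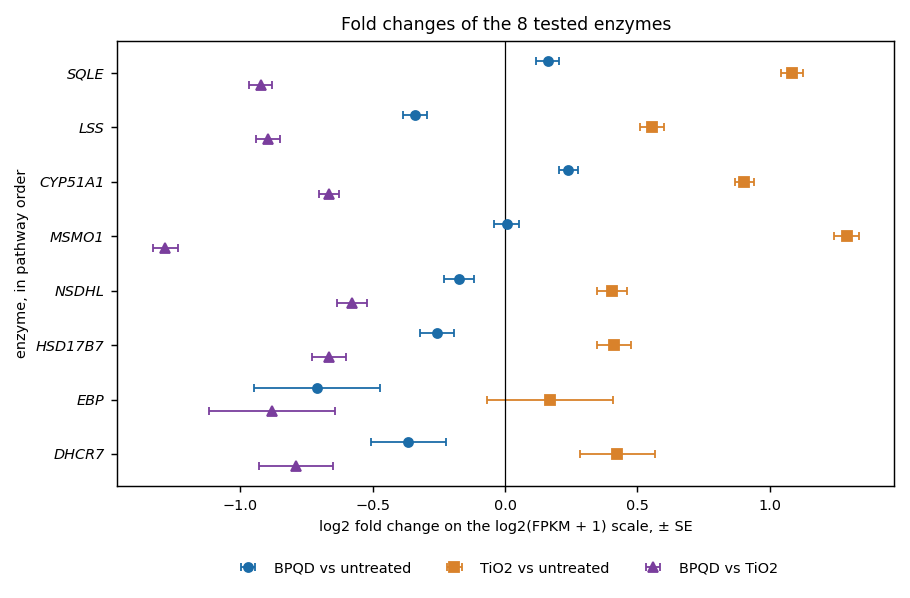
Log2 fold changes on the log2(FPKM + 1) scale (horizontal axis) of the 8 tested enzymes, with the SE of the limma fit, for BPQD against untreated, TiO2 against untreated and BPQD against TiO2. With BPQD against untreated, SQLE at 0.16 and CYP51A1 at 0.24 lie to the right of 0 and LSS at -0.34 to its left, while all 8 enzymes lie to the left of 0 for BPQD against TiO2.

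Set beside TiO2, BPQD libraries had less RNA of all 8 tested enzymes on average. This is again a description, since it uses the TiO2 libraries. MSMO1 averaged 5.03 ± 0.183 FPKM with BPQD and 13.7 ± 0.680 FPKM with TiO2 (SD, n = 3 each), a log2 difference of -1.28 ± 0.05. The log2 difference was -0.92 ± 0.04 for SQLE, -0.90 ± 0.05 for LSS and -0.67 ± 0.04 for CYP51A1. The early steps, although split in BPQD against untreated cells, thus all stood lower than in TiO2 libraries. It was -0.58 ± 0.06 for NSDHL, -0.67 ± 0.06 for HSD17B7, -0.79 ± 0.14 for DHCR7 and -0.88 ± 0.24 for EBP. The groups overlapped for EBP and for none of the other 7. All 8 enzymes lay past the call threshold on the lower side, as did 18.6% of all tested genes, while 19.0% of all genes did so on the higher side, and nothing is read from that count. The median of the 8 was -0.84, against 0.00 over all genes.

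Within a library, ratios between enzymes do not depend on how the library was scaled; these were picked after the values had been seen and are given without a test. The log2 ratio of CYP51A1 to LSS was 2.24 ± 0.03 in BPQD libraries, 1.87 ± 0.07 in TiO2 libraries and 1.56 ± 0.05 in untreated libraries (SD, n = 3 each). The ratio of SQLE to LSS was 0.93 ± 0.05 in BPQD libraries, 0.88 ± 0.08 in TiO2 libraries and 0.32 ± 0.07 in untreated libraries. Relative to LSS, SQLE and CYP51A1 thus stood higher in both exposed groups, and the ranges did not overlap with that of untreated libraries. The ratio of MSMO1 to LSS was 0.50 ± 0.10 in BPQD libraries, 0.87 ± 0.13 in TiO2 libraries and 0.07 ± 0.10 in untreated libraries. With NSDHL in place of LSS, the ratio of CYP51A1 was 0.38 ± 0.08 in BPQD libraries, 0.46 ± 0.13 in TiO2 libraries and -0.06 ± 0.06 in untreated libraries, and that of SQLE was -0.93 ± 0.14 in BPQD libraries, -0.52 ± 0.10 in TiO2 libraries and -1.30 ± 0.09 in untreated libraries. The CYP51A1 and SQLE ratios stood above the untreated ones with either denominator. For BPQD this follows from the fold changes above, because LSS and NSDHL fell while SQLE and CYP51A1 rose. NSDHL is therefore no independent check on LSS there, and other denominators were not used. The ratio of MSMO1 to NSDHL was -1.36 ± 0.09 in BPQD libraries, -0.53 ± 0.13 in TiO2 libraries and -1.55 ± 0.13 in untreated libraries. Its BPQD and untreated ranges overlapped.

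**Figure D3:**
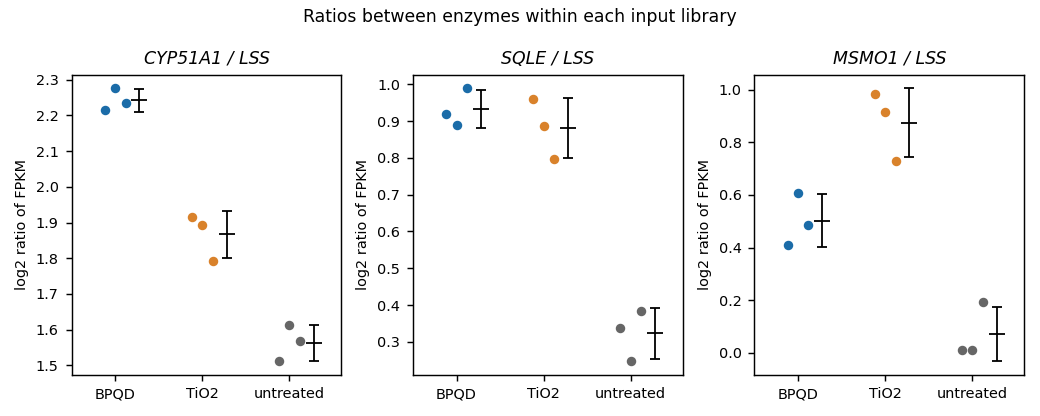
Log2 ratios of FPKM between enzymes within each library (vertical axis) for BPQD, TiO2 and untreated libraries from left to right; points are libraries and bars are group means with SD. The CYP51A1 to LSS ratio is at 2.24 on average in BPQD libraries and 1.56 in untreated ones, and the SQLE to LSS ratio averages 0.93 in BPQD libraries and 0.88 in TiO2 libraries, against 0.32 in untreated ones.

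The other genes of the pathway, from lists drawn up with earlier results of these data known, are given by count. Over all tested genes, 20.6% were called higher and 23.4% lower with BPQD, and 17.3% and 20.5% with TiO2, both against untreated. For BPQD against TiO2 the shares were 19.0% and 18.6%. These shares apply to every list below. Nothing is read from list counts that use the TiO2 libraries, since cholesterol synthesis was known to be higher there when the lists were drawn up. Of the 10 genes of the mevalonate arm, BPQD against untreated had 0 higher, 5 lower and 5 not called (median -0.16), TiO2 against untreated 8 higher, 1 lower and 1 not called (median 0.57), and BPQD against TiO2 1 higher, 8 lower and 1 not called (median -0.77). ACAT2, which joins acetyl-CoA units, fell by 0.31 ± 0.03 with BPQD (limma adjusted p = 0.00015) and was higher by 1.39 ± 0.03 with TiO2, both against untreated. HMGCS1, HMG-CoA synthase, differed by 0.04 ± 0.06 with BPQD and was higher by 1.33 ± 0.06 with TiO2. IDI1 was higher by 1.18 ± 0.14 and FDFT1, which makes squalene, by 0.98 ± 0.15 with TiO2, while with BPQD they differed by 0.15 ± 0.14 and -0.16 ± 0.15. These 4 genes thus had the largest differences of the arm with TiO2. MVD fell by 0.47 ± 0.06 (limma adjusted p = 0.0004), FDPS by 0.30 ± 0.03 (limma adjusted p = 0.000137) and MVK by 0.23 ± 0.04 (limma adjusted p = 0.00315) with BPQD. PMVK, the phosphomevalonate kinase, was the 1 gene of the arm called lower with TiO2, at -0.36 ± 0.04, and is named here after its value was seen.

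Of 7 other genes after squalene 6 were tested; BPQD against untreated had 0 higher, 2 lower and 4 not called (median -0.17), TiO2 against untreated 2 higher, 0 lower and 4 not called (median 0.40), and BPQD against TiO2 0 higher, 3 lower and 3 not called (median -0.27). ERG28, a scaffold of the C4 demethylation enzymes in yeast, fell by 0.33 ± 0.03 with BPQD (limma adjusted p = 0.000168) and was higher by 0.47 ± 0.03 with TiO2, both against untreated. That is the order seen for NSDHL and HSD17B7. HSD3B7, which belongs to bile acid synthesis, fell by 0.20 ± 0.03 with BPQD (limma adjusted p = 0.00156). SC5D was higher by 0.48 ± 0.06 with TiO2, and EBPL, a relative of EBP, was at -0.48 ± 0.28 with TiO2 and did not pass. LBR was at 0.30 ± 0.22 with BPQD against untreated and did not pass (limma adjusted p = 0.306).

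Of 17 tested genes of sterol sensing, uptake and export, out of 21 listed, BPQD against untreated had 2 higher, 6 lower and 9 not called (median -0.18), TiO2 against untreated 8 higher, 3 lower and 6 not called (median 0.04), and BPQD against TiO2 1 higher, 7 lower and 9 not called (median -0.19). INSIG1, which retains the SREBP complex, fell by 0.18 ± 0.05 with BPQD (limma adjusted p = 0.022) and was higher by 1.05 ± 0.05 with TiO2, both against untreated. STARD4, a sterol carrier, was higher by 0.71 ± 0.06 and NPC1, a lysosomal sterol exporter, by 0.63 ± 0.08 with TiO2. NPC2, the soluble partner of NPC1, fell by 0.30 ± 0.08 with BPQD (limma adjusted p = 0.0226) and was higher by 0.51 ± 0.08 with TiO2. SREBF2 fell by 0.39 ± 0.02 with BPQD (limma adjusted p = 1.35e-05) and differed by 0.04 ± 0.02 with TiO2. SREBF1, its relative that acts mainly on fatty acid genes, fell by 0.38 ± 0.03 with BPQD (limma adjusted p = 0.000116) and was at -0.34 ± 0.03 with TiO2. MBTPS2, a protease that releases SREBP, rose by 0.47 ± 0.04 with BPQD (limma adjusted p = 0.000136), and INSIG2 was at -0.69 ± 0.29 and did not pass (limma adjusted p = 0.0901).

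**Figure D4:**
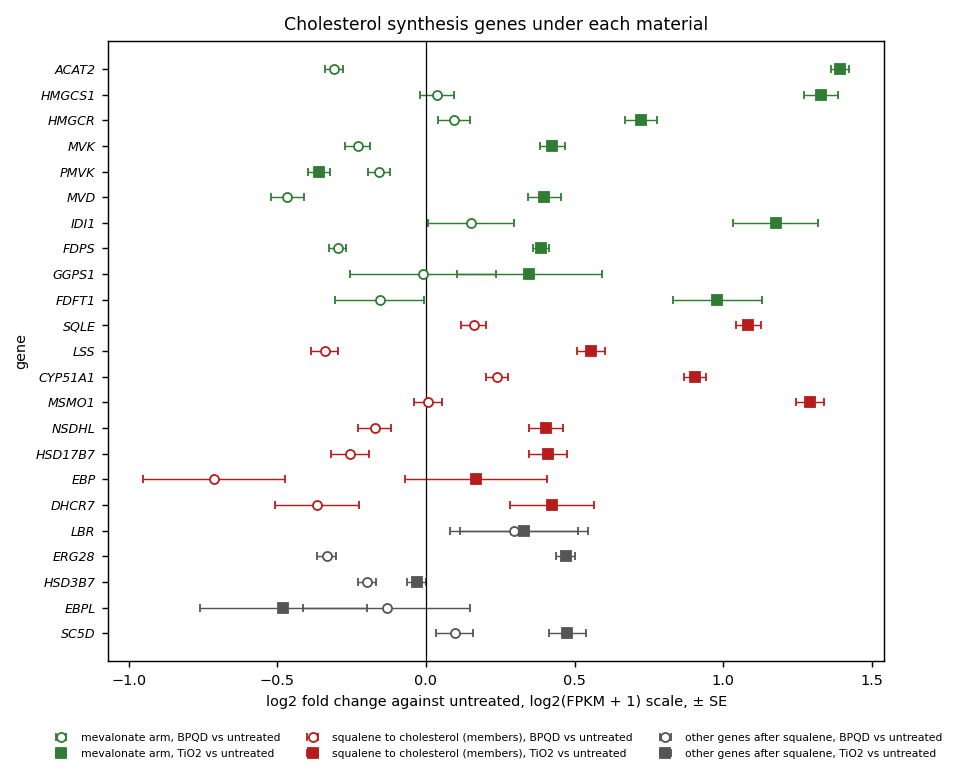
Log2 fold changes against untreated cells on the log2(FPKM + 1) scale (horizontal axis) with SE, for the mevalonate arm, the 8 tested enzymes after squalene and 5 other genes after squalene; open circles are BPQD and filled squares TiO2. ACAT2 at 1.39 and HMGCS1 at 1.33 are the farthest to the right with TiO2, and PMVK lies left of 0 under both exposures.

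Genes whose levels followed the mean z score of the 8 enzymes most closely over the 9 input libraries were ACSS2, F2R, CASP4, GDF15, TBC1D2, BHLHE40, FADS1 and ACAT2, with Pearson correlations of 0.994 to 0.987 among 6497 candidate genes of at least 5 FPKM. These libraries fall into 3 groups, so the values mostly describe group means, and they are a ranking without a p. ACSS2, which makes acetyl-CoA from acetate, averaged 4.10 ± 0.147 FPKM with BPQD, 10.3 ± 0.366 FPKM with TiO2 and 5.49 ± 0.118 FPKM untreated. FADS1, a fatty acid desaturase, averaged 17.7 ± 0.168 FPKM with BPQD, 24.4 ± 0.457 FPKM with TiO2 and 19.7 ± 0.544 FPKM untreated. Among the enzymes themselves, the correlation with the mean of the other enzymes was highest for NSDHL, at 0.983, then LSS at 0.961, HSD17B7 at 0.955 and MSMO1 at 0.938. It was lower for SQLE at 0.892, DHCR7 at 0.87, CYP51A1 at 0.825 and EBP at 0.65.

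On GRCh38, as the expression table gives the genes, SQLE lies on the plus strand of chromosome 8 from 124998497 to 125022283, LSS on the minus strand of chromosome 21 from 46188141 to 46228824, and CYP51A1 on the minus strand of chromosome 7 from 92112153 to 92134803. TM7SF2 lies on the plus strand of chromosome 11 from 65111845 to 65116384, and DHCR7 on its minus strand from 71428193 to 71452868. MSMO1 lies on the plus strand of chromosome 4 from 165327667 to 165343164 and HSD17B7 on that of chromosome 1 from 162790702 to 162812817. NSDHL and EBP lie on the plus strand of chromosome X, from 152830967 to 152869729 and from 48521799 to 48528716. The peaks below are placed against these bounds.

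For m6A, the authors' deposited tables give 1 log2 fold change and p-value per peak for each exposure against untreated cells, with no value per library, so these are the authors' values and carry no SD or n. Positive values mean more m6A enrichment with the exposure. The BPQD table holds 9 peaks in 6 of the 9 genes and the one for TiO2 holds 7 peaks in 6 genes, out of 14903 and 12891 peaks in all. HSD17B7 has no peak in either table. In the authors' deposited table for BPQD, 5 peaks of these genes were higher, 2 lower and 2 not called at a p under 0.05, where 37.7% of all peaks were called higher and 27.1% lower. In that for TiO2, 3 were higher, 3 lower and 1 not called in the authors' deposited table, where 40.3% of all peaks were called higher and 23.8% lower. At an FDR under 0.05 the counts were 4 of 9 for BPQD, in CYP51A1, DHCR7, MSMO1 and NSDHL, and 5 of 7 for TiO2, in CYP51A1, TM7SF2, EBP and, with 2 peaks, DHCR7; of all peaks, 43.7% passed in the BPQD table and 40.0% in that for TiO2. By the authors' annotation, 5 of the BPQD peaks lie in 3′ UTRs, 3 in 5′ UTRs and 1 in an exon, and 3, 3 and 1 of the TiO2 peaks.

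CYP51A1 had the largest rise among the enzymes in each table, in a peak annotated to the 5′ UTR at its start on chromosome 7. In the authors' deposited table it was higher by 1.99 with BPQD (p = 0.00589) over 92134723 to 92138796, and by 1.80 with TiO2 (p = 0.00708) over 92134664 to 92135082. The BPQD interval runs 3993 bases upstream of the gene's 5′ end as the expression table gives it, and the TiO2 interval 279 bases. A same-strand gene that overlaps CYP51A1, AC000120, stood at 0.197 to 1.44 FPKM, and the peak tables have no strand.

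At the 3′ end, DHCR7 and EBP had the same interval in both tables, lower with each exposure. In the authors' deposited tables the DHCR7 peak, chromosome 11 from 71428821 to 71434861, had a log2 fold change of -0.30 with BPQD (p = 0.00794) and -0.31 with TiO2 (p = 0.00105). The EBP peak, chromosome X from 48528387 to 48528716, had -0.08 with BPQD (p = 0.0324) and -0.20 with TiO2 (p = 1.15e-08) in the authors' deposited tables. With BPQD the EBP peak had an FDR of 0.125. For EBP the fold change with BPQD was the smallest, and the p with TiO2 the lowest, among all peaks of these enzymes in the 2 tables. DHCR7 also had a higher peak in each table, 0.46 with BPQD (p = 0.0331) over 71448881 to 71452157 and 0.38 with TiO2 (p = 0.000309) over 71444893 to 71447844 in the authors' deposited tables. The first of these, at an FDR of 0.128, is annotated to an exon of an antisense gene inside DHCR7, AP002387, which stood at 1.29 to 1.77 FPKM.

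MSMO1 and NSDHL peaks appear only in the BPQD table, and SQLE and LSS peaks only in the TiO2 table, which lists what the authors' tables hold and is no test of a difference. In the authors' deposited table for BPQD, MSMO1 had 2 peaks in its 3′ UTR on chromosome 4, 0.36 over 165340242 to 165340539 (p = 0.0123) and 0.61 over 165340599 to 165342154 (p = 2.57e-05). The first had an FDR of 0.0617 and the second of 0.000398, and the RNA of MSMO1 differed by 0.01 ± 0.05 with BPQD. The MSMO1 peak in the 5′ UTR, 60 bases wide, had 1.26 (p = 0.206) in the authors' deposited table. NSDHL had 0.30 in its 3′ UTR on chromosome X, over 152868865 to 152869461 (p = 2.04e-05), in the authors' deposited table, while its RNA fell by 0.17 ± 0.06 with BPQD. In the authors' deposited table for TiO2, SQLE had 0.10 in its 5′ UTR (p = 0.0407) and LSS -0.65 in its 3′ UTR on chromosome 21, over 46188470 to 46188709 (p = 0.0724). The SQLE peak had an FDR of 0.164.

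TM7SF2, the gene with the lowest RNA, had peaks near its start in both of the authors' deposited tables, -1.12 with BPQD (p = 0.0794) over 65111935 to 65112473 and -2.48 with TiO2 (p = 0.00234) over 65112054 to 65112473. The second is the largest fold change of any peak of these enzymes, on a gene whose mean was 0.768 ± 0.176 FPKM with TiO2 and 0.592 ± 0.250 FPKM untreated (SD, n = 3 each). Both comparisons share the untreated libraries, so like values in the tables are not independent of each other.

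**Figure D5:**
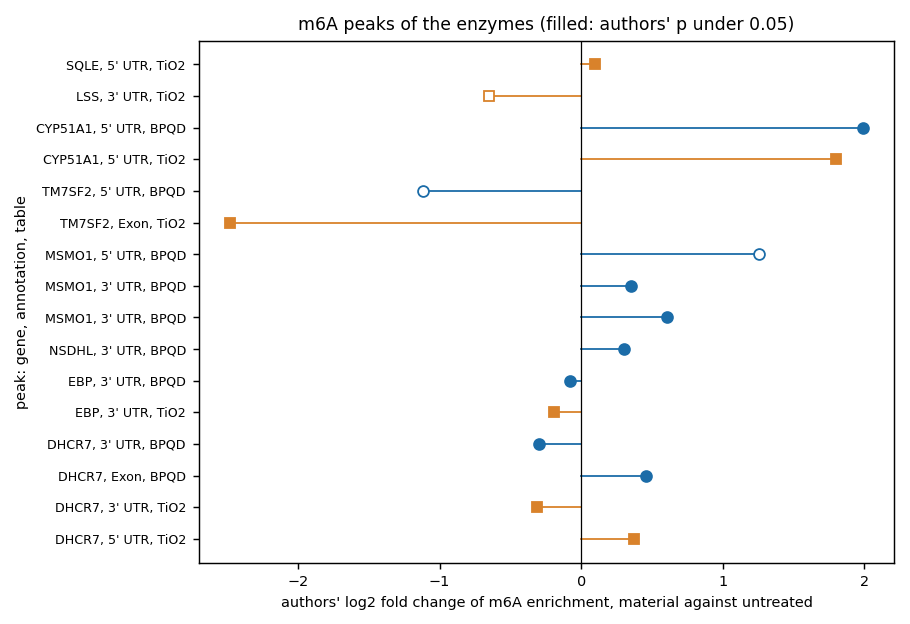
The authors' log2 fold changes of m6A (horizontal axis) for the peaks of these enzymes, 9 from the BPQD comparison (circles) and 7 from the TiO2 comparison (squares), each named by gene and annotated position and filled where the authors' p is under 0.05. CYP51A1 5′ UTR peaks lie at 1.99 and 1.80, and the TM7SF2 exon peak at -2.48 is the farthest to the left.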

How the data were processed

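The expression values are FPKM, per the file headers, made by the authors for the 9 input libraries; the submitters' processing notes name StringTie 1.3.0 and HISAT2, without a version of HISAT2, and list the mouse build mm10. Coordinates were read as GRCh38, because all 9 enzymes lie on the same chromosome and overlap their gene in RefSeq GRCh38.p14. The deposited peak tables give a log2 fold change, a p-value and, as its log10, an FDR, handled as a score; for the authors' peak caller and their pooling of replicates no source used here gives a name. A further 12 per-sample columns of FPKM in those files were left out.

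Group means of log2(FPKM + 1) were fitted with limma 3.58.1 in R 4.3.3 to all 9 input libraries, with a variance trend, for genes that average 1 FPKM or more. The exposures were each compared with untreated, and BPQD with TiO2, two-sided, and called at a Benjamini-Hochberg adjusted p under 0.05 over all tested genes. The fit was tested on simulated data. The enzymes and lists were chosen with earlier results of these data known. All 9 enzymes and all their peaks are named, up to 4 genes of each other list with the largest fold change, and the 8 genes most alike, apart from a few left out of the text. A peak counts as called where the authors' p is below 0.05. Alternatives covered the pseudocount, the filter, scaling, a replicate block, the libraries fitted and the variance trend. Summaries and figures used Python 3.11.15, numpy 2.4.6, pandas 2.3.3 and matplotlib 3.10.9.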

Additional observations from a re-analysis of the deposited data

How the results depend on the processing

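Each of the 3 comparisons was repeated under 18 other settings. With BPQD against untreated, 2 enzymes were called lower with no filter on low values and 2 after rescaling to TPM, against 4; leaving out 1 library at a time gave 2 to 4 lower and 1 to 2 higher. Left-out libraries gave 6 to 7 enzymes higher with TiO2 against untreated and 7 to 8 lower with BPQD against TiO2. DHCR7 no longer lay past the threshold in 12 of 18 settings with TiO2 against untreated. EBP did not in 5 of 18 with BPQD against TiO2. The MSMO1 difference with BPQD, 0.01, turned to -0.019 without BPQD replicate 2, -0.010 without untreated replicate 1 and -0.014 without untreated replicate 2, and reached 0.041 without untreated replicate 3. DHCR7 passed with BPQD when only the 6 compared libraries were fitted (limma adjusted p = 0.0233) and without TiO2 replicate 1 (limma adjusted p = 0.0159). At a mean of at least 5 FPKM, the other pathway genes called higher numbered 1 with BPQD against untreated and 1 with BPQD against TiO2, and all genes called 3495 and 2832, where fewer genes were tested. Rescaling to TPM split all genes into 2821 higher and 1842 lower for BPQD against TiO2. Of the 7 enzyme peaks called in the authors' table for BPQD, 4 passed at p under 0.01 and 4 at FDR under 0.05. Equal replicate numbers did not pair libraries: their deviations correlated at -0.083 to 0.0733, against -0.0788 to 0.0842 for unequal numbers. A replicate block gave 6 enzymes higher with TiO2, losing DHCR7, kept the other counts of enzymes called, and called 4996, 4160 and 4150 genes in all for BPQD against untreated, TiO2 against untreated and BPQD against TiO2. Apart from the settings whose effect is stated, the cause was not tested. Depth is unknown, so what a low level such as that of TM7SF2 could show cannot be stated.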
